A study of Mus musculus with 24 samples.

Results

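The 47 genes described here are members of the WNT signalling pathway: 10 secreted ligands, 2 proteins of ligand export, 13 receptors and co-receptors, 6 secreted antagonists, 6 feedback inhibitors, 6 proteins of the dishevelled, destruction complex and β-catenin step, and 4 TCF/LEF transcription factors. They were chosen by symbol, matched without regard to case, and all 47 were found among the 24034 symbols that the count tables of 3 tumour lines share. The RNA came from 4T07, D2A1 and EMT6, mouse mammary carcinoma lines transduced with mCherry and with mVenus-p27k, a fusion of a fluorescent protein with the cell cycle inhibitor p27 whose signal builds up in cells outside the cycle. Every mouse was a Balb/cJ female that received 250000 such cells in the mammary fat pad, and every tumour was harvested on day 14. From each of 4 tumours per line, p27K high cells, which the labels call quiescent, and p27K negative cells, which the design calls proliferative, were sorted and sequenced, giving 24 bulk libraries from 12 tumours. The groups share the transduced reporters, the host strain and the harvest day, and the labels name no further treatment. The sources used here give neither the age of the mice, nor whether the transduced cells were clonal, nor the gate limits.

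WNT proteins are lipid-modified by Porcn in the endoplasmic reticulum, carried to the cell surface by Wls and released to bind Frizzled receptors with Lrp5 or Lrp6. Receptor binding recruits dishevelled, halts the complex of Axin, Apc and kinases that marks β-catenin for destruction, and lets β-catenin enter the nucleus to act with TCF/LEF factors. Other ligands act through Ror and Ryk receptors without β-catenin, and secreted antagonists and feedback inhibitors such as Notum, Znrf3 and Axin2 limit the signal. In the mammary gland the pathway is known for its part in duct growth and in the upkeep of basal progenitor cells, and mouse mammary tumours gave the ligand family part of its name.

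The libraries held 1335433 to 45460880 counts, and those of the p27K negative gate of D2A1 tumours 1 to 3 were the smallest at 1335433, 2110563 and 1802042, so that low genes are measured least precisely there. In 4T07 the p27K high library of tumour 2 stood apart, with 13500 genes detected against 15094 to 15370 in the other p27K high libraries of that line. In D2A1 the p27K high library of tumour 3 stood apart as well. It held 6727594 counts and 18255 genes detected, against 16345251 to 20174767 counts and 20881 to 21278 genes in the others of that gate. The cycling markers Mki67, Top2a, Ccnb1 and Cdk1 were called lower in p27K high cells in each line, and their summed level was 43.5 to 103 CPM (counts scaled to library size) in the 12 p27K high libraries and 1269.6 to 4421 CPM in the 12 p27K negative ones. Summed epithelial and mammary carcinoma markers (9 genes, keratins and adhesion genes) reached 434 to 687 CPM in 4T07, 62.8 to 656 CPM in D2A1 and 612 to 1061 CPM in EMT6, with no marker at 0 in all libraries of a line. In D2A1 that sum was 62.8 to 656 CPM in p27K negative and 92.8 to 204 CPM in p27K high libraries. The p27K negative libraries there ranged from 0 to 151 CPM for Krt7 and from 0 to 80.9 CPM for Cdh1, which were not tested. Krt8 was called lower in p27K high cells of D2A1, and Krt18 was not called. Ptprc, the gene of CD45 against which cells were stained, stood at 4.56 to 12.5 CPM in p27K high and 19.3 to 38.6 CPM in p27K negative libraries of 4T07, and at no more than 2.77 CPM in D2A1 and 0.299 CPM in EMT6. Summed B cell and adipocyte markers never exceeded 0.593 CPM. The lines were sequenced in 3 separate runs, 1 line a run, so levels in different lines cannot be told apart from levels in different runs, and tests of a change were made within tumours.

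The lines differed in which WNT genes they expressed, as the colour map of levels shows. All levels compared between genes in this paragraph are CPM per kilobase of exon, averaged over the 8 libraries of a line, and they carry no test between lines. Ctnnb1, the gene of β-catenin, had the highest level of the 47 genes in each line, at 208 in 4T07, 109 in D2A1 and 67.3 in EMT6. Among the ligands Wnt7b led in 4T07 at 43.2 and in D2A1 at 27.2, whereas Wnt10a led in EMT6 at 35.9. Wnt10a stood at 6.86 in 4T07 and 0.349 in D2A1, and Wnt10b, at 11.8 in EMT6 and 6.58 in 4T07, stood at 0.333 in D2A1. Of the Frizzled genes, Fzd7 had the highest level in all 3 lines, at 12.1 in 4T07, 29.6 in D2A1 and 18.7 in EMT6. Fzd1 stood at 14.4 in EMT6 but at 0.163 in 4T07 and 0.678 in D2A1. The antagonist Sfrp1, a secreted protein that binds WNT ligands, stood at 18.1 in 4T07, 0.252 in D2A1 and 0.0604 in EMT6. The feedback inhibitor Nkd2, which binds dishevelled, stood at 19.1 in D2A1, 0.00399 in 4T07 and 0.00909 in EMT6. Axin2, a common readout of β-catenin activity, stood at 13.6 in D2A1, 5.68 in EMT6 and 0.194 in 4T07.

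**Figure D1:**
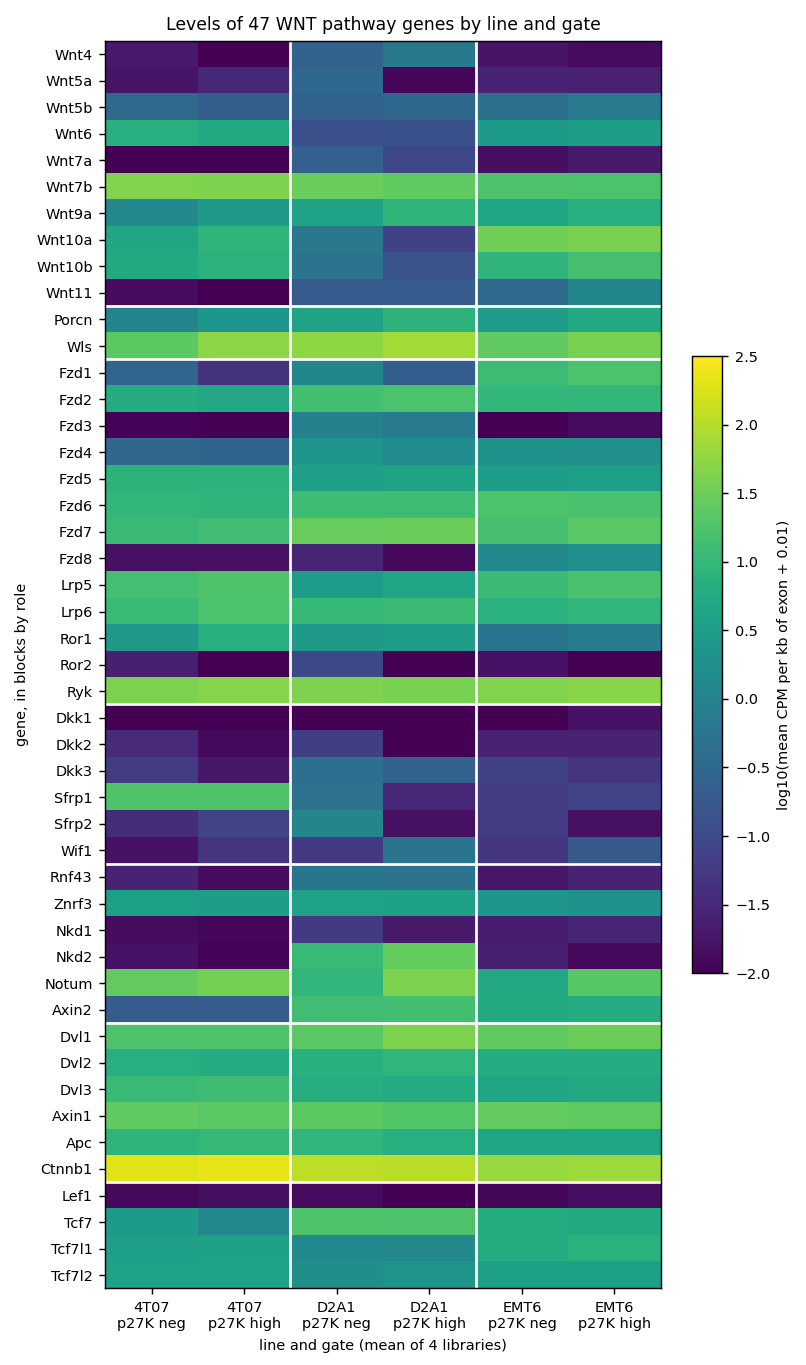
Mean level of each of the 47 genes, as log10 of CPM per kilobase of exon plus 0.01, in the p27K negative and p27K high gate of each line (4 libraries a cell); white lines part the roles and the lines. Ctnnb1, Ryk and Wls are bright in every column, whereas Dkk1, Dkk2, Ror2, Nkd1 and Lef1 are dark throughout.

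A group of 8 members was too low to be tested in any line: Wnt5a, Wnt7a, Ror2, Dkk1, Dkk2, Wif1, Nkd1 and Lef1. Dkk1, which blocks Lrp5 and Lrp6, had no count in any of the 8 libraries of 4T07 or of D2A1, which allows a level of up to 0.0114 CPM and 0.0367 CPM, and 1 count in EMT6. Wnt7a had 0 counts in 4T07, with the same limit of 0.0114 CPM. These limits take 3 counts over the 8 libraries of a line and cover counting error only. Lef1 never exceeded 0.128 CPM in a library. Wif1, an antagonist that binds ligands, stood at 0.552 to 2.15 CPM in the p27K high gate of D2A1 and at 0 to 0.448 CPM in its p27K negative gate, without overlap, and at 0.221 to 0.815 against 0 to 0.176 CPM in EMT6. It was not tested in either line because its counts were below the filter.

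Among the members that passed the filter on low counts, 31 were tested in 4T07, 32 in D2A1 and 32 in EMT6, and a change here is always the log2 ratio of the p27K high to the p27K negative gate of the same tumours, given ± the standard error of the fit with n = 4 tumours per line. In 4T07, 10 of 31 members rose and 2 fell (adjusted p below 0.05), against 22.1% of all genes called higher and 23.6% called lower (45.7% in either direction). In D2A1, 7 of 32 rose and 3 fell, against 14.9% and 14.7% of all genes (29.5% in either direction). In EMT6, 17 of 32 rose and 0 fell, against 24.1% and 25.1% of all genes (49.2% in either direction). The 0 is from edgeR's test, by which 1 member, Znrf3, was lower in EMT6 at an unadjusted p of 0.0338, and DESeq2 also called 0 lower. The members called in either direction made up 38.7% of those tested in 4T07, 31.2% in D2A1 and 53.1% in EMT6. These totals over both directions were near the share of all genes in each line and set the members apart in no line. By direction the shares of members called higher were 32.3%, 21.9% and 53.1% in the same order, and those called lower were 6.45%, 9.38% and 0%. Without overlap between the 4 libraries of each gate, 6 members were higher and 3 lower in 4T07 (against 17.1% and 21% of genes, 38% in all). By the same measure 7 were higher and 4 lower in D2A1 (15.3% and 15.6% of genes, 30.9% in all), and 8 were higher and 0 lower in EMT6 (15% and 19.3%, 34.3% in all). The median change of the members was -0.02 in 4T07, 0.07 in D2A1 and 0.23 in EMT6, and that of all genes tested was -0.00, 0.02 and 0.02. Some members passed the filter through 1 gate only, so that being tested depended on their level in that gate. Through the p27K negative gate these were Sfrp2 and Fzd1 in D2A1 and Fzd1, Wnt5b and Axin2 in 4T07. Through the p27K high gate it was Wnt4 in D2A1. Of these, Sfrp2 and Fzd1 were called, lower in p27K high cells, and Wnt5b, Axin2 and Wnt4 were not. Fibroblast markers moved with the members in EMT6, where 7 of 8 tested of 10 were called higher and 0 lower, with a summed level of 7539 to 10075 CPM in p27K high and 5671 to 7873 CPM in p27K negative libraries. Col1a2 alone stood at 3305 to 5508 CPM there, and Fap and Dpt, which were not tested, at no more than 0.761 CPM. In 4T07, 3 of 8 tested were called higher (Dcn, Pdgfra and Pdgfrb) and 1 lower (Pdpn), at 1533 to 2307 against 626 to 778 CPM. Col1a1, Col1a2 and Col3a1 were not called in 4T07. No fibroblast marker was at 0 in all libraries of either line. Which cells expressed these markers, and their part in the members' counts, was not tested.

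The 24 libraries were also fitted together, and 26 members were tested in each of the 3 lines. In this average over lines, 10 of the 26 rose (38.5%, against 33.4% of all genes) and 5 fell (19.2%, against 26.3%, and 59.7% of genes in either direction), with a median of 0.13 against 0.03 for all genes. The 10 were Wnt9a, Porcn, Wls, Fzd7, Lrp5, Lrp6, Ror1, Ryk, Notum and Dvl1, and the 5 were Fzd1, Fzd4, Znrf3, Axin1 and Tcf7. A set of 5 members, Wnt9a, Porcn, Wls, Lrp5 and Notum, was called higher in every line (19.2%, against 6.41% of the genes tested in each line). None was called lower in every line, against 9.62% of genes. Fzd1 was called in opposite directions in different lines, as were 3.13% of genes. Since bulk RNA of a sorted gate is measured here, a smaller share of some cell type in a gate and less RNA of a gene per cell cannot be told apart.

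**Figure D2:**
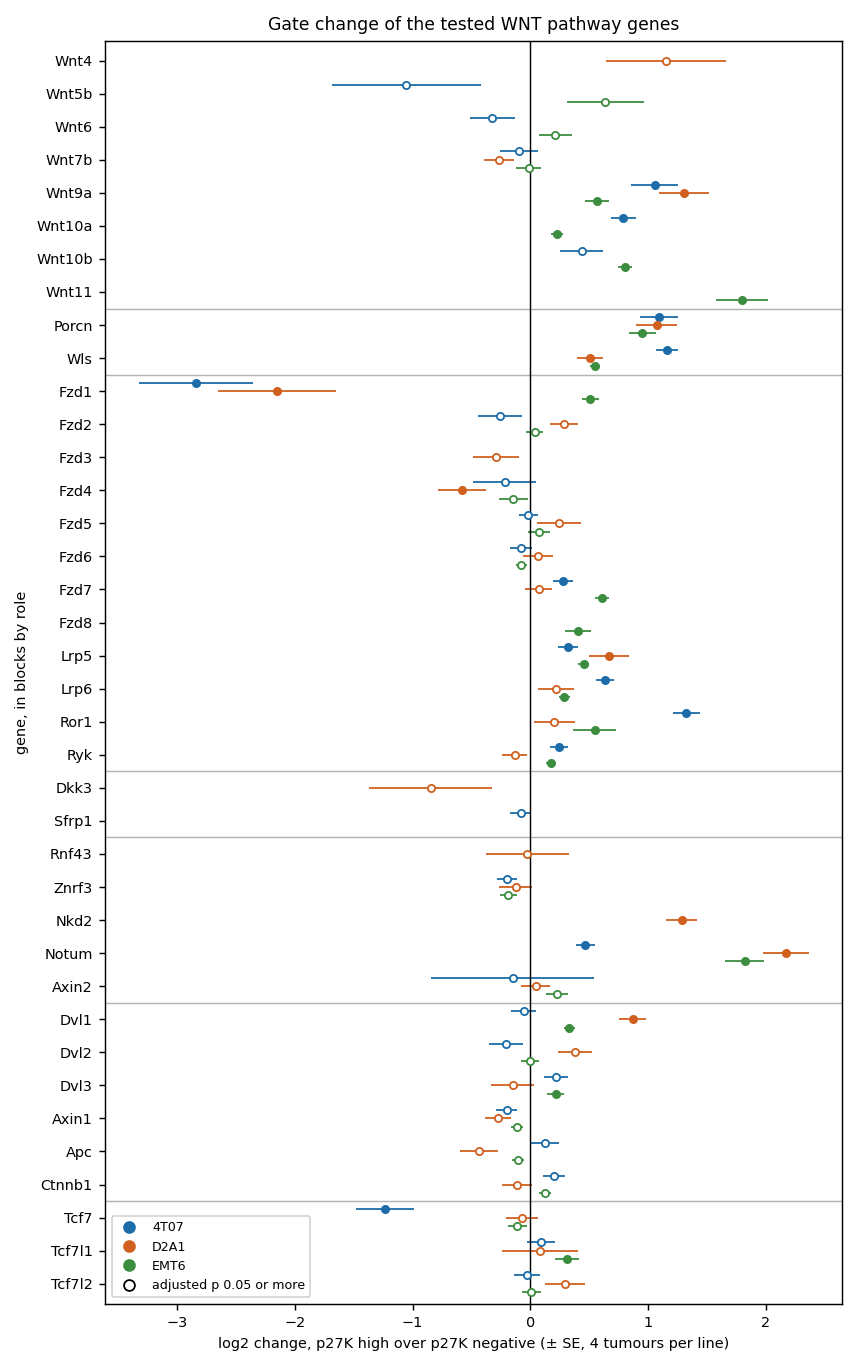
Change of each tested member in each line (log2 of p27K high over p27K negative, bars are ± standard error over 4 tumours), with filled points for an adjusted p under 0.05. Sfrp2 is left out because its fold in D2A1 rests on 1 count in the p27K high gate. Wnt9a, Porcn, Wls, Lrp5 and Notum have 3 filled points right of 0.

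Both genes of ligand export, Porcn and Wls, rose in each line and in 12 of 12 tumours. Porcn encodes the acyltransferase that attaches the lipid without which WNT proteins are not secreted (chromosome X, 8193848 to 8206525, minus strand). In 4T07 its p27K negative libraries held 2.93, 2.22, 3.77 and 4.36 CPM and its p27K high libraries 7.10, 4.86, 8.37 and 7.77 CPM in tumours 1 to 4. In D2A1 the values were 14.1, 8.42, 12.2 and 12.2 CPM against 26.5, 23.8, 23.8 and 24.4 CPM. In EMT6, whose tumours carry the numbers 0, 1, 2 and 4 in the count table, they were 6.38, 9.74, 9.16 and 10.4 CPM against 16.7, 17.0, 15.7 and 19.2 CPM. The gates did not overlap in any line. The change was 1.09 ± 0.16 in 4T07 (adjusted p = 0.00155), 1.08 ± 0.17 in D2A1 (adjusted p = 0.000467) and 0.95 ± 0.11 in EMT6 (adjusted p = 0.00012). An unequal change between lines was not called (adjusted p = 0.727).

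Wls encodes the carrier that takes finished WNT proteins to the cell surface (chromosome 3, 159839672 to 159938664, plus strand). In 4T07 its p27K negative libraries held 209.7, 202, 226 and 188 CPM and its p27K high libraries 441, 396, 525 and 493 CPM. In D2A1 it went from 467, 450.1, 539 and 419 CPM to 738, 638, 724 and 574 CPM. In EMT6 it went from 242, 204, 212 and 239 CPM to 376, 300.3, 299 and 341 CPM. Every p27K high library of a line exceeded every p27K negative library of the same line. The rise was 2.24-fold in 4T07, at 1.16 ± 0.09 (adjusted p = 7.5e-05), 1.42-fold in D2A1, at 0.51 ± 0.11 (adjusted p = 0.00352), and 1.46-fold in EMT6, at 0.55 ± 0.04 (adjusted p = 9.96e-06). It was unequal between the lines (adjusted p = 0.00159, a test that called 26.6% of the genes tested in each line). Without D2A1 tumour 1 the rise in that line was 0.46 with an adjusted p of 0.052.

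Wnt9a was the ligand that rose in every line, and the promoters of Wnt9a and Wls are shown because these members rose together in 3 lines. The sequences are the 250 bases before a transcript start, 5′ to 3′ on the strand of the gene, from RefSeq on GRCm38.p6, for Wls chr3:159839400-159839649 and for Wnt9a chr11:59306680-59306929, both on the plus strand. They were searched on both strands for CTTTGAT, the core letters that TCF/LEF factors bind, which read ATCAAAG on the other strand, and a match would stand in capitals.
Wls: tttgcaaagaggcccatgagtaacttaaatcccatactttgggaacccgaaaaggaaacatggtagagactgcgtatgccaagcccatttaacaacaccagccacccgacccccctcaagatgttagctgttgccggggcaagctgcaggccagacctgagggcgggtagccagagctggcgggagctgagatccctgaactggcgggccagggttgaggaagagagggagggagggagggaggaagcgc
Wnt9a: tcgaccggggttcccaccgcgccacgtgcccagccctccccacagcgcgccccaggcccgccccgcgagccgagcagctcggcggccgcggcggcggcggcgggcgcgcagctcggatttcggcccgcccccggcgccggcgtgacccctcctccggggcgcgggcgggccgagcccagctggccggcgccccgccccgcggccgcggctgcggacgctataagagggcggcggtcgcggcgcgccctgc
Neither holds the letters. The Wnt9a stretch is 84.4% G or C with 48 CpG pairs, and the Wls stretch is 58.0% G or C with 8 CpG pairs, against medians of 52.4% and 6 over all promoters. The table held 41 promoters for 31 of the 47 members, with no entry for the other 16, Porcn, Lrp5 and Notum among them. The letters were in 2 of the 41 (4.88%), a promoter each of Wnt5b and Wnt11, and in 3.21% of all 32851 promoters.

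Wnt9a (chromosome 11, 59306928 to 59333552, plus strand) had 4.51, 4.67, 4.94 and 3.43 CPM in the p27K negative libraries of 4T07 and 8.42, 7.86, 8.80 and 11.6 CPM in its p27K high libraries. In D2A1 the values were 21.5, 4.68, 18.8 and 6.21 CPM against 36.7, 23.8, 40.04 and 16.0 CPM. In EMT6 they were 16.6, 11.1, 13.5 and 18.4 CPM against 19.0, 20.0, 20.4 and 28.8 CPM. The gates were apart in 4T07 and EMT6 and overlapped in D2A1, where the tumours themselves differed widely but each rose. The change was 1.06 ± 0.20 in 4T07 (adjusted p = 0.00472), 1.31 ± 0.21 in D2A1 (adjusted p = 0.000431) and 0.57 ± 0.10 in EMT6 (adjusted p = 0.00162). Averaged over lines it was 1.01 ± 0.11, with a rise in 12 of 12 tumours.

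**Figure D3:**
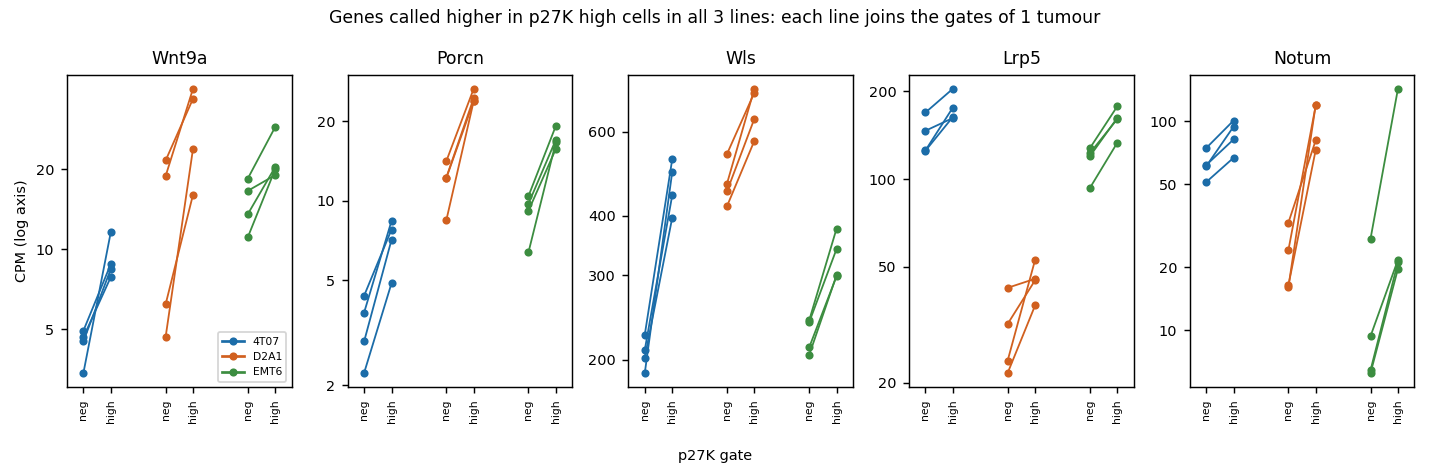
CPM (log axis) of the 5 members called higher in all 3 lines, with the p27K negative and p27K high libraries of a tumour joined. Each tumour rises for Wnt9a, Porcn, Wls, Lrp5 and Notum, and in EMT6 1 tumour carries far more Notum (143 CPM in its p27K high library) than the other 3.

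Of the remaining ligands, Wnt10a was called in 2 lines and Wnt10b and Wnt11 in 1 line each. Wnt10a and Wnt10b, ligands that signal through β-catenin and are known from mammary and hair follicle development, were expressed in 4T07 and EMT6. In 4T07 Wnt10a stood at 13.5, 10.3, 13.7 and 12.1 CPM in p27K negative libraries and at 21.9, 18.8, 26.6 and 18.7 CPM in p27K high libraries, a gap without overlap and a rise of 0.79 ± 0.11 (adjusted p = 0.00108). In EMT6 it stood at 72.2, 86.3, 85.0 and 82.7 against 77.9, 100.5, 107 and 97.7 CPM, and the smaller rise of 0.23 ± 0.05 was also called (adjusted p = 0.00522). Wnt10b in EMT6 went from 30.4, 28.0, 30.6 and 27.8 CPM to 58.6, 46.5, 51.3 and 48.6 CPM, a rise of 0.81 ± 0.06 (adjusted p = 5.25e-06). In 4T07 Wnt10b stood at 18.5, 16.5, 20.2 and 18.6 CPM in p27K negative and at 29.9, 13.1, 34.1 and 27.9 CPM in p27K high libraries, higher in 3 of 4 tumours, with a change of 0.44 ± 0.18 that did not pass (adjusted p = 0.0902). Tumour 2 was the exception, and without it the change was 0.68 (adjusted p = 4.19e-05). With all tumours kept, DESeq2 called the rise, at 0.45 (adjusted p = 0.042). Wnt10a lies 6193 bases from Wnt6 on chromosome 1, and Wnt6 showed changes of -0.32 ± 0.19 in 4T07 and 0.21 ± 0.14 in EMT6 that did not pass (adjusted p = 0.204 and 0.244).

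Wnt11, a ligand known for signalling without β-catenin (chromosome 7, 98835112 to 98855195, plus strand), rose in EMT6 from 2.34, 1.23, 0.749 and 1.34 CPM to 5.27, 4.79, 3.99 and 5.07 CPM. The gates did not overlap, and the change was 1.80 ± 0.22 (adjusted p = 0.000139). In 4T07 and D2A1 it was too low to test. Its promoter at chr7:98834862-98835111 is shown because it holds the TCF/LEF letters, in capitals, starting 51 bases before the transcript start; the match is a description of the sequence and not a measured site.
Wnt11: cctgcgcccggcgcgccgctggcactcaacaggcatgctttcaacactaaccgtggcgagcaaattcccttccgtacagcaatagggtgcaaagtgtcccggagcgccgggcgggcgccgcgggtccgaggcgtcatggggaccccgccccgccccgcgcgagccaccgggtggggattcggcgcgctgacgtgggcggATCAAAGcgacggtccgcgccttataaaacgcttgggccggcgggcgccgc
Wnt7b, the leading ligand of 4T07 and D2A1, was called in no line: its change was -0.09 ± 0.16 in 4T07, -0.27 ± 0.13 in D2A1 and -0.01 ± 0.10 in EMT6. Its D2A1 value passed only without tumour 3, at -0.30 (adjusted p = 0.0446). Wnt4 in D2A1 (1.15 ± 0.51) and Wnt5b in 4T07 (-1.05 ± 0.63) and EMT6 (0.64 ± 0.32) reached at most 5.10 and 2.56 CPM and were not called, although Wnt5b in EMT6 passed without tumour 1, at 1.06 (adjusted p = 0.0165).

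Wnt5a, a ligand of the β-catenin-independent branch, was below the filter in D2A1, where it had 4, 5, 7 and 13 counts in the p27K negative libraries and 0, 0, 0 and 1 in the p27K high ones. Over the 4 libraries of a gate its pooled level was 84.4 times as high in p27K negative cells, with an exact 95% interval of 14.0 to 3448 for counting error alone. The other lines did not show this gap. Wnt5a had 8 counts in the p27K negative and 18 in the p27K high gate of 4T07, and 9 and 8 in EMT6.

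Among the receptors, Lrp5 rose in every line, and Lrp6, Ror1, Fzd7 and Ryk rose in 4T07 and EMT6 but were not called in D2A1. Lrp5 and Lrp6 are the co-receptors that pair with Frizzled to signal through β-catenin. Lrp5 (chromosome 19, 3584828 to 3686564, minus strand) went from 169, 147, 125 and 125 CPM to 204, 162, 176 and 164 CPM in 4T07. In D2A1 it went from 42.3, 31.8, 21.6 and 23.8 CPM to 45.4, 44.9, 36.8 and 52.7 CPM, and in EMT6 from 93.2, 128, 119.8 and 123 CPM to 133, 178, 162 and 161 CPM. Every tumour rose, and the gates were apart in EMT6 only. The changes were modest at 0.32 ± 0.08 in 4T07 (adjusted p = 0.0167), 0.67 ± 0.17 in D2A1 (adjusted p = 0.00997) and 0.45 ± 0.05 in EMT6 (adjusted p = 3.94e-05). The 4T07 call was lost without tumour 1, 3 or 4 (adjusted p = 0.0718, 0.0987 and 0.0866) and with library totals as the only scaling (0.19, adjusted p = 0.14), a scaling that moved the median of all genes in 4T07 from -0.00 to -0.14. Without D2A1 tumour 4 the change there was 0.43 (adjusted p = 0.124).

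Lrp6 in 4T07 went from 154, 154, 149.6 and 142 CPM to 235, 261, 218 and 219 CPM, with no overlap, a rise of 0.64 ± 0.08 (adjusted p = 0.000543). In EMT6 it went from 93.8, 113, 92.2 and 111 CPM to 120.4, 131, 113 and 136 CPM, a rise of 0.29 ± 0.05 (adjusted p = 0.000798). In D2A1 it stood at 168, 118, 149 and 122 CPM against 183, 173, 113 and 177 CPM, and the p27K high library of tumour 3 was the only 1 below its partner. The D2A1 change was 0.22 ± 0.15 (adjusted p = 0.308), and without tumour 3 it was 0.42 (adjusted p = 0.00353).

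Ror1, a receptor of WNT5A-type ligands, rose most in 4T07, from 16.2, 22.2, 14.1 and 10.7 CPM to 35.7, 53.5, 33.1 and 34.4 CPM. The gates did not overlap, and the change was 1.33 ± 0.12 (adjusted p = 0.000133). In D2A1 Ror1 stood at 13.4 to 17.1 CPM in p27K negative and 14.2 to 21.3 CPM in p27K high libraries, a change of 0.20 ± 0.17 (adjusted p = 0.416). In EMT6 it went from 4.86, 2.64, 1.38 and 3.68 CPM to 8.499, 3.61, 2.64 and 3.78 CPM, a change of 0.55 ± 0.18 (adjusted p = 0.0337). That EMT6 call was lost without tumour 0, 1 or 2 (adjusted p = 0.124, 0.07 and 0.124) and with DESeq2 (adjusted p = 0.0954). The change was unequal between lines (adjusted p = 0.00294).

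Fzd7 went from 61.4, 65.8, 69.8 and 70.4 CPM to 86.3, 101, 121 and 103 CPM in EMT6, without overlap, a rise of 0.61 ± 0.06 (adjusted p = 2.97e-05). In 4T07 it went from 52.6, 56.1, 39.6 and 49.2 CPM to 58.8, 69.1, 46.98 and 65.4 CPM, a rise of 0.28 ± 0.08 (adjusted p = 0.028). In D2A1, where Fzd7 was highest, the change was 0.07 ± 0.11 (adjusted p = 0.676). The test between lines called these unequal (adjusted p = 0.0212), but not without D2A1 tumour 4 or EMT6 tumour 1 or 2 (adjusted p = 0.0523, 0.0604 and 0.0888). Without 4T07 tumour 1, 3 or 4 the 4T07 call was lost (adjusted p = 0.0757, 0.0955 and 0.155), as it was with library totals as the only scaling (0.14, adjusted p = 0.209).

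Ryk, a receptor of the β-catenin-independent branch, had levels of 156 to 277 CPM in all 24 libraries and small changes. The rise was 0.24 ± 0.08 in 4T07 (adjusted p = 0.0364) and 0.17 ± 0.04 in EMT6 (adjusted p = 0.00881), and changed by -0.13 ± 0.11 in D2A1 (adjusted p = 0.394). It was higher in each of the 4 tumours of 4T07 and EMT6 and lower in each of 4 in D2A1. The test between lines gave an adjusted p of 0.0497, which exceeded 0.05 when any tumour other than 4T07 tumour 2 or D2A1 tumour 3 was left out (0.0579 to 0.131). The 4T07 call was lost without tumour 1, 3 or 4 (adjusted p = 0.0771, 0.179 and 0.145) and that in EMT6 without tumour 4 (adjusted p = 0.0559). With library totals as the only scaling the 4T07 change was 0.11 (adjusted p = 0.313) and the average over lines, 0.13 ± 0.04 (adjusted p = 0.0179), was 0.04 (adjusted p = 0.489). The average call was also lost with no filter (adjusted p = 0.0567) and with no block (adjusted p = 0.126).

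Fzd1 was the only member called in opposite directions. In EMT6, where it was well expressed, it went from 41.1, 56.7, 44.2 and 58.6 CPM to 67.9, 72.6, 68.6 and 73.9 CPM, without overlap, a rise of 0.51 ± 0.07 (adjusted p = 0.000382). In D2A1 it stood at 8.17, 6.55, 2.77 and 1.79 CPM in p27K negative libraries and at 0.652, 1.16, 0.618 and 1.05 CPM in p27K high libraries, a change of -2.15 ± 0.50 (adjusted p = 0.00559). In 4T07 it stood at 0.793, 0.667, 1.83 and 1.56 CPM against 0.186, 0.162, 0.106 and 0.158 CPM, a change of -2.84 ± 0.48 (adjusted p = 0.00288). Gates were apart in each line, but the 4T07 values rest on 163 counts over 4 p27K negative libraries and 20 over 4 p27K high ones, and those of D2A1 on 58 and 55. In both lines Fzd1 was tested only because its p27K negative gate passed the filter, which also bears on the opposite calls and on the test between lines. The test between lines gave an adjusted p of 4.25e-05. Endothelial markers moved with the falls: in D2A1 both tested markers of 7 were called lower, with a summed level of 0.735 to 4.35 CPM in p27K high and 8.86 to 29.0 CPM in p27K negative libraries, and in 4T07 4 of 4 tested were called lower, at 2.84 to 5.04 against 9.20 to 14.1 CPM. No endothelial marker was at 0 in all libraries of either line. In EMT6, where Fzd1 rose, 0 of 1 tested was called, at 2.84 to 8.76 against 3.64 to 15.4 CPM. Other lists fell with Fzd1 in 4T07: 10 of 10 macrophage markers, at a summed 78.3 to 96.2 CPM in p27K high and 381 to 959 CPM in p27K negative libraries, 2 of 5 neutrophil markers, at 17.7 to 57.3 against 53.9 to 67.1 CPM, and Ptprc. In D2A1 4 of 9 tested fibroblast markers, Col1a1, Col1a2, Col3a1 and Pdpn, were called lower and 2 higher, with the list at 905 to 1141 CPM in p27K high and 785 to 999 CPM in p27K negative libraries. The part of any of these cells in the Fzd1 values was not tested.

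The promoter of Fzd1, at chr5:4758217-4758466 on the minus strand and read on that strand, is shown for this member of opposite calls; it does not hold the TCF/LEF letters.
Fzd1: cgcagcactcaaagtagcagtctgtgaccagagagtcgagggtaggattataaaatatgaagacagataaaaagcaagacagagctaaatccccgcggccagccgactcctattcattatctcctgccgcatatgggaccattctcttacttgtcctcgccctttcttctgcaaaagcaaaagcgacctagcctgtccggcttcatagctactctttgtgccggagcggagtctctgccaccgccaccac
Fzd8, which was too low to test in 4T07 and D2A1, rose in EMT6 from 5.68, 9.44, 8.64 and 9.77 CPM to 9.16, 11.4, 12.4 and 11.0 CPM, a change of 0.41 ± 0.11 (adjusted p = 0.0148). Without tumour 2 the adjusted p was 0.0796. Fzd4 fell in D2A1 from 20.0, 12.6, 13.3 and 17.1 CPM to 10.7, 9.62, 6.34 and 14.4 CPM, a change of -0.58 ± 0.20 (adjusted p = 0.0468). That call was lost whichever of tumours 1 to 4 was left out (adjusted p = 0.186, 0.0843, 0.0791 and 0.0546), and with DESeq2 (adjusted p = 0.0607). Its average over lines, -0.28 ± 0.11 (adjusted p = 0.049), was lost when any of 9 of the 12 tumours was left out, with adjusted p from 0.0523 to 0.129, all but 4T07 tumour 3, D2A1 tumour 4 and EMT6 tumour 4. Fzd2, Fzd3, Fzd5 and Fzd6 were called in no line, with changes from -0.29 to 0.29, and Fzd2 in D2A1 passed only without tumour 3 (0.31, adjusted p = 0.0351).

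Of the 6 secreted antagonists, 1 was tested in 4T07, 2 in D2A1 and 0 in EMT6, and the 1 call was Sfrp2 in D2A1, where 29.5% of all genes were called. With no filter on low counts, Wif1 was also called higher in D2A1 (adjusted p = 0.00517) and EMT6 (adjusted p = 0.0233), and Sfrp1 lower in D2A1 (adjusted p = 9.18e-06). Sfrp1 in 4T07 was the antagonist with the highest level, at 73.0, 98.1, 61.3 and 88.8 CPM in p27K negative and 62.3, 103, 52.2 and 93.2 CPM in p27K high libraries. Its gates overlapped and its change was -0.08 ± 0.09 (adjusted p = 0.504). Sfrp2, a related ligand-binding protein made by many fibroblasts, was called lower in D2A1 (adjusted p = 5.33e-05), where it had 5, 4, 4 and 28 counts in the p27K negative libraries and 1, 0, 0 and 0 in the p27K high ones. Over the 4 libraries of a gate it was 119 times as high in p27K negative cells, with an exact 95% interval of 20.3 to 4828 for counting error. Sfrp2 was tested only because its p27K negative gate, in which it was high, passed the filter. The call was not made without tumour 4 or under a stricter filter. Sfrp1 in D2A1, below the filter, had 42 counts in the p27K negative gate, 33 of them in tumour 4, and 8 in the p27K high gate. Dkk3 in D2A1 stood at 0.742 to 2.21 CPM against 0.490 to 1.25 CPM, a change of -0.84 ± 0.52 (adjusted p = 0.252).

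Fibroblast markers moved unevenly in D2A1 beside the Sfrp2 and Wnt5a counts. Of 9 tested markers of 10, Col1a1, Col1a2, Col3a1 and Pdpn were called lower, and Pdgfra and Pdgfrb were called higher. Col1a2 stood at 112 to 143 CPM in p27K negative libraries and at 3.63 to 25.6 CPM in p27K high ones. The summed level of the list was 785 to 999 CPM in p27K negative and 905 to 1141 CPM in p27K high libraries, with no marker at 0 in all libraries. The part of fibroblasts in the Sfrp2 and Wnt5a counts was not tested.

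Notum was the feedback inhibitor that rose in every line and in 12 of 12 tumours. It encodes a secreted enzyme that removes the lipid from WNT proteins and so inactivates them (chromosome 11, 120653788 to 120661175, minus strand). In D2A1 it went from 32.7, 16.4, 16.1 and 24.1 CPM to 81.1, 73.0, 120.0 and 119 CPM, a rise of 4.51-fold without overlap (2.17 ± 0.20, adjusted p = 2.29e-06). In EMT6 it went from 27.4, 9.39, 6.45 and 6.26 CPM to 143, 21.7, 21.2 and 19.7 CPM, a rise of 3.53-fold (1.82 ± 0.16, adjusted p = 1.96e-05). Tumour 0 of EMT6 stood far above the other 3 in both gates, which is why the gates overlap, and with the tumour left out of the model as a block the change was 2.05 (adjusted p = 0.0581). In 4T07 it went from 60.8, 51.1, 74.3 and 61.6 CPM to 94.1, 66.8, 101 and 81.7 CPM, a smaller rise of 1.38-fold (0.47 ± 0.08, adjusted p = 0.00318). The change was unequal between lines (adjusted p = 0.000257).

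Exons of Notum overlap 2 antisense genes, Notumos and Myadml2os, and the strand setting of the counting is not given in the sources used here, so reads of these genes and of Notum cannot be told apart. Notumos had 7.11 to 12.7 CPM in p27K high and 0.742 to 1.98 CPM in p27K negative libraries of D2A1, and changed by 2.61 ± 0.31 (adjusted p = 3.13e-05). In EMT6 its change was 1.85 ± 0.25 (adjusted p = 0.00023).

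Nkd2, which binds dishevelled and dampens the signal, rose in D2A1 from 52.7, 50.5, 65.9 and 42.7 CPM to 162, 97.4, 158 and 108 CPM. The gates did not overlap, and the rise was 2.44-fold (1.29 ± 0.13, adjusted p = 8e-06). Axin2, by contrast, was called in no line: its change was -0.15 ± 0.69 in 4T07, 0.05 ± 0.12 in D2A1 and 0.23 ± 0.09 in EMT6 (adjusted p = 0.875, 0.812 and 0.0647). In D2A1 Axin2 stood at 59.4 to 86.4 CPM in p27K negative and 70.7 to 87.7 CPM in p27K high libraries, which overlapped. In 4T07 it stood near 1 CPM, with 0.0405 CPM in the p27K high library of tumour 2, and in EMT6 it passed only without tumour 0, at 0.35 (adjusted p = 0.00112), or with another filter on low counts. The average of Axin2 over lines was 0.13 (adjusted p = 0.523), and without 4T07 tumour 2 it was 0.30 and was called (adjusted p = 0.00998). Znrf3, a ligase that removes Frizzled from the membrane, was lower in p27K high cells in each of 12 tumours, with changes of -0.20 ± 0.09 in 4T07, -0.12 ± 0.14 in D2A1 and -0.19 ± 0.07 in EMT6. No line passed on its own (adjusted p = 0.1, 0.552 and 0.0651), although EMT6 did without tumour 0 (adjusted p = 0.0336). The average of -0.14 ± 0.06 had an adjusted p of 0.0494, which exceeded 0.05 when any tumour other than 4T07 tumour 2 was left out (0.0515 to 0.11). With library totals as the only scaling that average was -0.22, and with DESeq2 it was -0.12 and was not called (adjusted p = 0.0585). Rnf43, the partner ligase, stood at 1.87 to 5.34 CPM in D2A1 with a change of -0.03 ± 0.35.

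Inside the cell, dishevelled genes rose in places, and the genes of the destruction complex and of β-catenin were called in no line by edgeR's test. Dvl1, which relays the signal from Frizzled, went in D2A1 from 93.5, 120.2, 107 and 123 CPM to 198, 201, 192 and 221 CPM, a rise of 0.87 ± 0.11 without overlap (adjusted p = 7.93e-05). In EMT6 it went from 132, 113, 141 and 111 CPM to 169, 149, 166 and 139.9 CPM, a rise of 0.33 ± 0.05 (adjusted p = 0.000368). In 4T07 its change was -0.05 ± 0.11 (adjusted p = 0.708), and the change was unequal between lines (adjusted p = 0.000453). Exons of Dvl1 overlap Tas1r3 on the other strand, whose mean was 0.967 CPM in the p27K high and 1.15 CPM in the p27K negative gate of D2A1. Likewise, exons of Dvl2 overlap Acadvl and those of Ctnnb1 overlap Ulk4, both protein-coding genes on the other strand. Wnt5a, Wnt7b, Wnt11, Fzd5, Fzd6, Sfrp2, Axin2, Lef1 and Tcf7l1 also share exon bases with a gene on the other strand. The part of these genes in the members' counts was not tested. Dvl3 in EMT6 went from 32.5, 31.1, 26.3 and 26.4 CPM to 37.6, 32.7, 29.4 and 35.5 CPM, a change of 0.22 ± 0.07 (adjusted p = 0.0307). That call was lost without tumour 2 or 4 (adjusted p = 0.0708 and 0.17) and with DESeq2 (adjusted p = 0.0752). Dvl2 in D2A1 changed by 0.38 ± 0.14 (adjusted p = 0.0604), with gates apart at 33.7 to 54.9 and 56.1 to 59.3 CPM, and passed without tumour 3 (0.43, adjusted p = 0.0155).

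Axin1, the scaffold of the destruction complex, was lower in p27K high cells in each of 12 tumours, by small amounts. Its change was -0.20 ± 0.09 in 4T07, -0.27 ± 0.11 in D2A1 and -0.11 ± 0.05 in EMT6 (adjusted p = 0.0935, 0.0889 and 0.0996). No line passed, and the average of -0.16 ± 0.05 did (adjusted p = 0.00835), at -0.25 with library totals as the only scaling and at an adjusted p of 0.0628 without the tumour as a block. In D2A1 the values were 86.9, 89.4, 86.4 and 93.3 CPM in p27K negative and 71.7, 80.8, 71.0 and 71.9 CPM in p27K high libraries, without overlap, and without tumour 3 that line passed at -0.28 (adjusted p = 0.0278). Apc, another part of the complex, had changes of 0.12 ± 0.12 in 4T07, -0.43 ± 0.16 in D2A1 and -0.10 ± 0.05 in EMT6. By edgeR's test it was called in none (adjusted p = 0.423, 0.0605 and 0.113), whereas DESeq2 called Apc lower in D2A1, at -0.44 (adjusted p = 0.0486). Ctnnb1 changed by 0.20 ± 0.09, -0.11 ± 0.13 and 0.12 ± 0.05 in the same order (adjusted p = 0.105, 0.561 and 0.0743), and its 4T07 value passed without tumour 2, at 0.28 (adjusted p = 0.0025).

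Of the TCF/LEF factors, which carry the signal to DNA, Tcf7 fell in 4T07 and Tcf7l1 rose in EMT6. Tcf7 in 4T07 went from 7.87, 8.04, 6.19 and 7.88 CPM to 4.08, 1.74, 3.18 and 4.06 CPM, without overlap, a change of -1.23 ± 0.24 (adjusted p = 0.00553). The p27K high library of tumour 2, the 1 with few genes detected, held the lowest value, and over the 10 alternatives run the change was -1.37 to -0.95 and stayed called. In D2A1, where Tcf7 was higher at 35.1 to 63.1 CPM, its change was -0.07 ± 0.14 (adjusted p = 0.727), and in EMT6 it was -0.11 ± 0.08 (adjusted p = 0.279). The change was unequal between lines (adjusted p = 0.00317). Tcf7 is also a gene of T cells, and T and NK cell markers moved with it in 4T07: 1 of 2 tested of 6 was called lower, and the summed level was 0.446 to 1.28 CPM in p27K high and 2.14 to 4.01 CPM in p27K negative libraries, with no marker at 0 in all libraries. All 10 macrophage markers fell in 4T07 as well, from a summed 381 to 959 CPM to 78.3 to 96.2 CPM. The part of these cells in the Tcf7 values was not tested.

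Tcf7l1 in EMT6 went from 19.5, 29.4, 20.3 and 27.3 CPM to 29.4, 27.6, 26.5 and 35.2 CPM, higher in 3 of 4 tumours, a change of 0.31 ± 0.10 (adjusted p = 0.0309). Without tumour 2 or 4 the adjusted p was 0.12 and 0.108. Tcf7l2 was called in no line, with changes of -0.03 ± 0.11 in 4T07, 0.30 ± 0.17 in D2A1 and 0.01 ± 0.08 in EMT6.

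Equality of the change over the 3 lines was rejected for 8 of the 26 members tested in each line (30.8%, against 26.6% of genes): Fzd1, Notum, Dvl1, Wls, Ror1, Tcf7, Fzd7 and Ryk. In the plot of within-tumour differences, Notum and Dvl1 rose most in D2A1, whereas Wls and Ror1 rose most in 4T07. Pairs of lines were not tested against each other, so this order carries no test. For the other 18 members an unequal change was not called, which does not show that the lines changed alike.

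**Figure D4:**
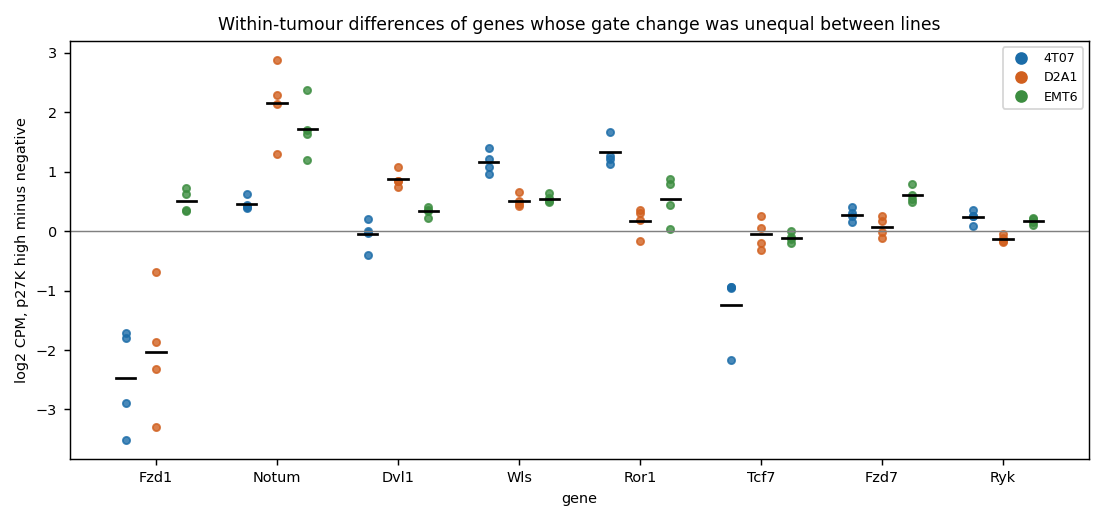
Within-tumour difference of log2 CPM (p27K high minus p27K negative) of the 8 members whose change was unequal between the lines; each point is 1 tumour and each black bar the mean of 4. Fzd1 lies above 0 in EMT6 and below 0 in the other lines, and Tcf7 departs from 0 in 4T07.

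Other genes of the pathway, 86 on 7 lists, were counted beside the members. In 4T07, 16 of 55 tested rose and 9 fell, in D2A1 9 of 54 rose and 5 fell, and in EMT6 20 of 53 rose and 5 fell. Of all genes, 22.1% were called higher and 23.6% lower in 4T07, 14.9% and 14.7% in D2A1, and 24.1% and 25.1% in EMT6, and the counts of each list that follow stand beside these shares. Of 13 other ligands and R-spondins, 2 were tested in each line, and 1 call was made: Rspo2, a secreted enhancer of the signal, rose in EMT6 from a mean of 72.3 to 86.3 CPM (0.26, adjusted p = 0.00371). Of 10 other receptors, 1 of 4 rose in 4T07, 1 of 4 in D2A1 and 2 of 5 in EMT6, and none fell. Lgr4, a receptor of R-spondins, had an average change of 0.65 ± 0.07 (adjusted p = 3.42e-07), with 1.22 in 4T07, 0.18 in D2A1 (adjusted p = 0.507) and 0.47 in EMT6. Ptk7, a co-receptor, averaged 0.12 ± 0.07 (adjusted p = 0.171) and rose in D2A1 (0.53, adjusted p = 0.00757).

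Of 11 other extracellular inhibitors, 2 of 4 tested rose and 1 fell in 4T07, 2 of 3 rose in D2A1 and 1 of 2 rose in EMT6. Kremen1, which helps remove Lrp6 from the surface, averaged 0.39 ± 0.07 (adjusted p = 0.000196) and Tpbg 0.24 ± 0.05 (adjusted p = 0.000989). Of 13 other destruction complex genes and kinases, 12 were tested in each line, and 6 rose and 1 fell in 4T07, 0 rose and 1 fell in D2A1, and 4 rose and 1 fell in EMT6. The kinase genes Csnk1e and Gsk3b averaged 0.40 ± 0.05 (adjusted p = 2.01e-06) and 0.36 ± 0.06 (adjusted p = 3.97e-05). Of 12 nuclear cofactors, 11 were tested in each line, and 2 rose and 2 fell in 4T07, 1 rose in D2A1, and 2 rose and 1 fell in EMT6. Tle2, a co-repressor that binds TCF factors, rose in every line (0.49 in 4T07, 1.66 in D2A1 and 1.43 in EMT6, average 1.22 ± 0.11). Ctnnbip1, which keeps β-catenin from TCF factors, averaged -0.35 ± 0.06 (adjusted p = 0.000206).

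Of 15 genes of the planar polarity and calcium branch, 2 rose and 4 fell of 13 in 4T07, 3 rose and 2 fell of 12 in D2A1, and 4 rose and 3 fell of 12 in EMT6. Vangl1, a core planar polarity gene, fell in every line (-0.79 in 4T07, -0.58 in D2A1 and -0.28 in EMT6, average -0.52 ± 0.04), and Prickle1 averaged 0.51 ± 0.09 (adjusted p = 0.000114). Of 12 common WNT target genes, 3 rose and 1 fell of 9 in 4T07, 2 rose and 2 fell of 10 in D2A1, and 6 rose and 0 fell of 9 in EMT6. Wisp2, a secreted matrix protein, averaged 1.34 ± 0.17 and was called in 4T07 (1.44) and EMT6 (1.18) but not in D2A1 (1.17, adjusted p = 0.117), where its mean was 1.19 CPM in p27K negative and 2.48 CPM in p27K high libraries. Tcf4, which is not among the TCF/LEF members, rose in every line, with an average of 0.36 ± 0.05. The targets that fell were Ccnd1 in 4T07 and D2A1 (average -0.39 ± 0.06, adjusted p = 8.88e-05) and Wisp1 in D2A1. Wisp1 was called higher in EMT6.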

How the data were processed

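RNA-seq libraries of p27K high and p27K negative cells sorted from 4 tumours of each of 3 lines were analysed. The deposited values are whole-number gene counts, 1 table per line, made by GENEWIZ, per the labels' protocols; the submitters' processing notes name mm10 and DESeq2, and no source used here names the aligner, the counter, its strand setting or the library kit. The counts are raw, and each library's total sets its precision. The D2A1 and EMT6 tables held 49316 entries each, of which 176 had no name (at most 0.0109% and 0.0089% of a library's counts) and 1 was a totals entry; these were left out, as were 4 entries per table whose symbols had turned into ambiguous dates, and 97 entries were summed into others of the same symbol. The 4T07 table held 24982 entries, with 24034 symbols matched to the other tables, 849 matched through RefSeq names and 95 kept as written.

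Each line was tested with edgeR 4.0.16 (R 4.3.3, limma 3.58.1), using TMM scaling, the default filter on low counts, the quasi-likelihood test and the tumour as a block, with Benjamini-Hochberg adjustment over all genes tested and a threshold of 0.05. All 24 libraries were also fitted together, blocked by the 12 tumours, for the mean change over lines and an F test of equal change, reported for members tested in each line. Standard errors were taken from the change and its F value. Levels are CPM on TMM-scaled totals, and levels per kilobase use GENCODE vM21 exon length. Gates were paired because both came from 1 tumour, per the labels; EMT6 columns carry the numbers 0, 1, 2 and 4, unlike the sample titles, and were paired by those. Deviations of same-numbered libraries from their gate means correlated at 0.574 to 0.813 in EMT6, 0.195 to 0.801 in 4T07 and 0.0834 to 0.294 in D2A1 over 5000 genes.

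Values per library are given for up to 24 members called in at least 1 line with a mean of at least 5 CPM in a gate. They are also given for the 2 members of smallest p in each role and for those called unequal, except that Ryk and Dkk3 are given by range. Other lists are represented by the 2 genes of smallest average p. Other values, such as those of Wnt5a, Wif1, Ccnd1 and Wisp1, were singled out after they were seen. The members and the lists were chosen with earlier results of these data known. Alternatives were DESeq2 1.42.0, other scalings, other filters, no block, and each tumour left out. The fit of a single line was also run on simulated counts that held no difference between tumours. That run could not test the block, and it did not cover the joint fit. Nothing in the labels says that tumours of a line came from separate cultures. With the tumour as a block, the p-values therefore rest on the spread of the gate difference over these tumours only.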

Additional observations from a re-analysis of the deposited data

Results flagged for a closer look

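In each gate of 4 libraries and in each set of 4 within-tumour differences, the most distant value was compared with the others. Of 285 sets, 27 had a value far from the rest, where chance gives about 1 in 20, or 14.25. They fell most often at 4T07 tumour 2 (6) and D2A1 tumour 3 (6), whose p27K high libraries had few genes detected for their line and gate. D2A1 tumour 1 (4) and EMT6 tumour 0 (4) came next.

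Among ligands and export genes, Wnt9a in 4T07 differed by 1.74 (log2, p27K high over negative) in tumour 4 and Wnt9a in EMT6 stood at 28.8 CPM in the p27K high library of tumour 4. Wnt10b in 4T07 differed by -0.33 in tumour 2, and Porcn in D2A1 by 1.48 in tumour 2. Among receptors, Fzd2 in 4T07 stood at 11.4 CPM and Ror1 at 53.5 CPM in the p27K high library of tumour 2. Fzd2 in EMT6 differed by -0.21 in tumour 1, and Lrp6 in D2A1 stood at 113 CPM in the p27K high library of tumour 3. Sfrp2 in D2A1 stood at 0.0502 CPM, its single count, in the p27K high library of tumour 1.

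Among feedback inhibitors, Notum in EMT6 stood at 143 CPM in the p27K high and 27.4 CPM in the p27K negative library of tumour 0. Znrf3 in D2A1 differed by -0.40 in tumour 3, Axin2 in 4T07 by -3.63 in tumour 2, and Axin2 in D2A1 stood at 87.7 CPM in the p27K high library of tumour 1. Inside the cell, Dvl2 in EMT6 stood at 42.2 CPM in the p27K high library of tumour 0, and Dvl3 in 4T07 differed by -0.11 in tumour 4. Dvl3 in D2A1 differed by -1.02 in tumour 3, with 20.1 CPM in its p27K high library, and stood at 39.3 CPM in the p27K negative library of tumour 1. Axin1 stood at 80.8 CPM in the p27K high library of D2A1 tumour 2 and differed by -0.24 in EMT6 tumour 0. Apc stood at 218 CPM in the p27K high library of 4T07 tumour 2 and at 62.9 CPM in that of D2A1 tumour 3, where it differed by -1.20. Tcf7 in 4T07 differed by -2.17 in tumour 2 and stood at 6.19 CPM in the p27K negative library of tumour 3, and Tcf7 in D2A1 stood at 63.1 CPM in the p27K negative library of tumour 1.

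The change between gates was unequal over the lines for 8 members by the F test of the joint edgeR fit. The adjusted p was 4.25e-05 for Fzd1, 0.000257 for Notum, 0.000453 for Dvl1 and 0.00159 for Wls. It was 0.00294 for Ror1, 0.00317 for Tcf7, 0.0212 for Fzd7 and 0.0497 for Ryk.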

How the results depend on the processing

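Of 1871 values of single members under the alternatives, 1750 kept their side of the threshold (37 of them, none called, changed sign), 94 lost the call, 27 gained it and 0 reversed after a call. Of 114 counts, 95 stayed within 1.5 times. Without the tumour as a replicate block, 10 members rather than 17 were called higher in EMT6 (Dvl3, Fzd8, Notum, Ror1, Ryk, Tcf7l1 and Wnt10a were lost), 4 rather than 8 were called unequal and 2 rather than 5 were lower on average. The average count of 5 lower members was also 3 with RLE size factors and 3 with no filter, and 3 to 4 with any tumour left out. In 4T07 the count of 2 lower members was 1 under a stricter filter, which tests fewer genes, and 4 with library totals as the scaling. In D2A1 the count of 3 lower was 1 under the stricter filter, 5 with no filter and 2 to 5 with a tumour left out (5 without tumour 3), and in EMT6 the count of 0 lower was 0 to 1 (1, Znrf3, without tumour 0). The causes of the other shifts were not tested. Without the block, the other calls lost were Fzd7, Lrp5 and Ryk in 4T07 and Fzd4 in D2A1. Low depth in D2A1 p27K negative tumours 1 to 3 limits low genes there, and 15 or 16 members per line were too low to test.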
